A study of Mus musculus with 14 samples.

Results

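The genes described here were 10 members of the NRF2 antioxidant response, chosen by name: the transcription factor *Nfe2l2* (NRF2 itself), its inhibitor *Keap1*, and 8 genes for redox enzymes that NRF2 is known to switch on, *Nqo1*, *Hmox1*, *Gclc*, *Gclm*, *Txnrd1*, *Srxn1*, *Gsr* and *G6pdx*. They are 10 of 54446 gene identifiers in the files, and all 10 were among the 18232 genes tested. RNA was sequenced from mouse E14 embryonic stem (ES) cells grown without feeders, with or without Ink128 (INK128), an inhibitor of the growth kinase mTOR (mTORi) that puts ES cells into a state resembling the dormancy of the diapaused blastocyst. Wild-type cells (WT) were collected at 0, 24, 72 and 144 h, and *Tet1/2* double-knockout cells (DKO), an E14 line in which the genes of the DNA demethylases TET1 and TET2 were deleted with Cas9, at 0, 24 and 72 h, with 2 libraries in each of the 7 groups. The 0 h groups were untreated. All groups were kept in serum with LIF on gelatin, in medium that contained β-mercaptoethanol, a reducing agent, and a single DKO line stood for the genotype.

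NRF2 is a short-lived protein. In unstressed cells KEAP1 binds it and presents it to a CUL3 ubiquitin ligase for degradation, and oxidants or electrophiles modify cysteines of KEAP1, so that NRF2 escapes, enters the nucleus with a small MAF partner and binds antioxidant response elements in its target genes. Its activity is therefore set largely at the protein level, which RNA does not show. The targets make glutathione, recycle glutathione, thioredoxin and peroxiredoxins, break down haem and quinones, and supply the NADPH that the reductases consume.

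Values are given on 2 scales. The deposited TPM (a level per length of transcript) sum to 1000000 in every library and show the share of the RNA a gene takes. Spike-in normalized TPM are the same values times 1 factor for each library, from 1 to 2.81, that the study derived from RNA standards added to RNA from sorted cells. The factors were up to 1.65-fold apart between the 2 libraries of a group (DKO 24 h). The median change of all tested genes on the normalized scale, as log2 fold change, was -0.33, -0.33 and -0.83 in WT cells (24, 72 and 144 h) and -0.49 and -0.12 in DKO cells (24 and 72 h), and members are read beside these medians. Read depth is unknown, and 28306 to 29927 genes were above 0 in each library. *Tet2* was at 15.9 to 22.2 deposited TPM in the 6 DKO libraries and at 96.0 to 143 in the 8 WT libraries, whereas *Tet1* RNA was still listed at 147 to 248 in DKO and 191 to 349 in WT. A value for the whole gene cannot show whether the deleted stretch is missing from that RNA. The 8 ES cell markers summed to 4126 to 6326 deposited TPM (*Pou5f1* 792 to 1057), and 6 fibroblast markers to 2.53 to 18.7 (*Col1a1* at most 0.512). The 6 primitive endoderm markers summed to 100.4 and 182 at WT 24 h against 12.6 and 42.4 at WT 0 h, and to 70.6 and 29.8 at DKO 24 h against 40.5 and 13.3 at DKO 0 h. In WT cells 6 trophectoderm markers summed to 75.6 and 67.1 against 34.9 and 54.1 at the same times. In DKO cells they summed to 64.4 and 39.8 against 50.1 and 37.9. Their part in the 24 h results below was not tested.

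Antioxidant response elements carry the core TGACNNNGC or TGAGNNNGC. Promoter windows from RefSeq (GRCm38.p6, 250 bases before to 50 after a transcript start) were at hand for 7 of the 10 members, all but *Hmox1*, *Gclc* and *Gsr*, and 5 of the 7 (*Nfe2l2*, *Srxn1*, *Gclm*, *Txnrd1* and *G6pdx*) held a match on either strand. The 7 members had 9 windows. *Txnrd1* had several, and its match lay in the window at chr10:82858956-82859255, with 0 in the others. Of all 32851 windows in the table, 27.8% held a match, a share per window and not per gene, so a match by itself is common. The stretches around the matches of 3 target genes are shown. In the fits of all libraries without a block, *Srxn1* was the only member called different between the genotypes on either scale. *Gclm* and *Txnrd1* are target genes that fell at 24 h. They read 5′ to 3′ on the strand of the gene, with the match in capitals (or its reverse complement where the motif lay on the other strand).
Srxn1, chr2:152105465-152105501, plus strand: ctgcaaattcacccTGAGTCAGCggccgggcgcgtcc
Srxn1, chr2:152105352-152105388, plus strand: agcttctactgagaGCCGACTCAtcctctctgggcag
Gclm, chr3:122245409-122245445, plus strand: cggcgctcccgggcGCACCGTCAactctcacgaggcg
Txnrd1, chr10:82859100-82859136, plus strand: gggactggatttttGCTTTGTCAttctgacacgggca
A further *Srxn1* match, 28 to 36 bases after the start, is not printed. The first *Srxn1* match lay 45 to 37 bases before the start and also contains TGAGTCA, the letters that AP-1 factors bind. *Nqo1* and *Keap1* held no match in their windows, which says nothing of elements elsewhere in these genes.

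At 24 h of mTORi treatment the wild-type cells had less RNA of 7 of the 8 redox enzyme genes, all but *Gclc*, while *Nfe2l2* and *Keap1* had means at 90.0% and 81.7% of the start on the normalized scale and did not pass the test. On the normalized scale 7 of the 10 members fell, *Nqo1*, *Hmox1*, *Gclm*, *Txnrd1*, *Srxn1*, *Gsr* and *G6pdx*, where 8.73% of all tested genes were called lower, and none rose. On deposited TPM the same 7 fell, against 14.1% of all genes. In bulk RNA, fewer cells with a transcript and less of it per cell cannot be told apart.

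*Nqo1* (chr8:107388225-107403206, mm10 as for all genes here), the quinone reductase often used as a readout of NRF2, was at 13.8 and 14.9 deposited TPM at WT 0 h and at 4.97 and 3.45 at WT 24 h. The groups were far apart, and the mean at 24 h was 29.4% of the start (22.3% on the normalized scale). The log2 fold change was -2.01 ± 0.34 (SE, adjusted p = 0.0014) on the normalized scale, the 116th lowest of the 18232 genes, and -1.57 ± 0.19 (adjusted p = 0.00031) on deposited TPM. *Hmox1* (chr8:75093621-75100589), the haem oxygenase that opens the haem ring, started at 84.3 and 150.2 TPM and was at 40.3 and 60.2 at 24 h. The 2 untreated libraries stood well apart from each other, yet the groups did not overlap. The change was -1.55 ± 0.37 (adjusted p = 0.011), and -1.17 on deposited TPM (adjusted p = 0.0076).

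In the glutathione branch *Gclm* and *Gsr* passed the test and *Gclc* did not. *Gclm* (chr3:122245557-122270732), the modifier subunit of glutamate-cysteine ligase, which makes the first and limiting bond of glutathione, was at 71.0 and 95.05 TPM at WT 0 h and at 43.2 and 50.4 at 24 h, without overlap. Its log2 fold change was -1.18 ± 0.30 (adjusted p = 0.018). *Gclc* (chr9:77754535-77794485), the catalytic subunit of the same enzyme, went from 18.9 and 21.1 TPM to 17.3 and 16.9. This was -0.58 ± 0.30 on the normalized scale (adjusted p = 0.22), not past the threshold. The 95% intervals of the 2 subunits overlapped (-1.81 to -0.55 for *Gclm* and -1.20 to 0.04 for *Gclc*), and the difference between them was not tested. *Gsr* (chr8:33652523-33698163), glutathione reductase, was at 63.1 and 69.3 TPM at the start and at 38.4 and 31.5 at 24 h, or -1.29 ± 0.31 (adjusted p = 0.012).

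*Txnrd1* and *Srxn1* of the thioredoxin system and *G6pdx* of the NADPH supply also fell. *Txnrd1* (chr10:82833951-82897712), cytosolic thioredoxin reductase and the most abundant of the 10 at the start, went from 195.7 and 195.9 TPM to 141 and 125, the smallest change of the 7 that passed (-0.93 ± 0.29, adjusted p = 0.047). *Srxn1* (chr2:152105516-152111376), sulfiredoxin, which repairs over-oxidized peroxiredoxins, went from 13.8 and 15.8 TPM to 7.22 and 7.37 (-1.32 ± 0.33, adjusted p = 0.016). *G6pdx* (chrX:74409483-74429194), glucose-6-phosphate dehydrogenase, the entry of the pentose phosphate pathway and a main source of NADPH, went from 32.2 and 39.8 TPM to 18.5 and 15.5 (-1.42 ± 0.30, adjusted p = 0.0059). In each of the 3 genes both treated libraries were below both untreated ones. *G6pd2*, a near-identical paralog of *G6pdx*, was at or under 0.0502 TPM in every library. *G6pdx*, *Gclm*, *Keap1* and *Txnrd1* overlap other genes on the opposite strand, *G6pdx* for one the gene *Ikbkg*. The quantification parameters that the study states name no strand setting, so reads of such pairs may not be told apart. *Nfe2l2*, *Gclm*, *Txnrd1* and *Gsr* also overlap genes on the same strand (Gm24996, Gm6061, *Eid3* and Gm24727), which a strand setting would not separate.

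By contrast, *Nfe2l2* (chr2:75675513-75704641) was at 39.3 and 41.5 TPM at WT 0 h and at 46.99 and 46.5 at 24 h. Both treated libraries were above both untreated ones as a share of the RNA, but after spike-in normalization they were not (82.9 and 87.6 against 67.4 and 86.2). The log2 fold change was thus 0.21 ± 0.08 on deposited TPM (adjusted p = 0.077) and -0.16 ± 0.28 on the normalized scale (adjusted p = 0.75), and only deposited TPM with the replicate number as a block put it past the threshold (adjusted p = 0.049). *Keap1* (chr9:21229730-21239361) was at 13.6 and 13.0 TPM and then at 14.5 and 13.5, or -0.29 ± 0.32 (adjusted p = 0.60, normalized) and 0.07 (adjusted p = 0.66, deposited).

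**Figure D1:**
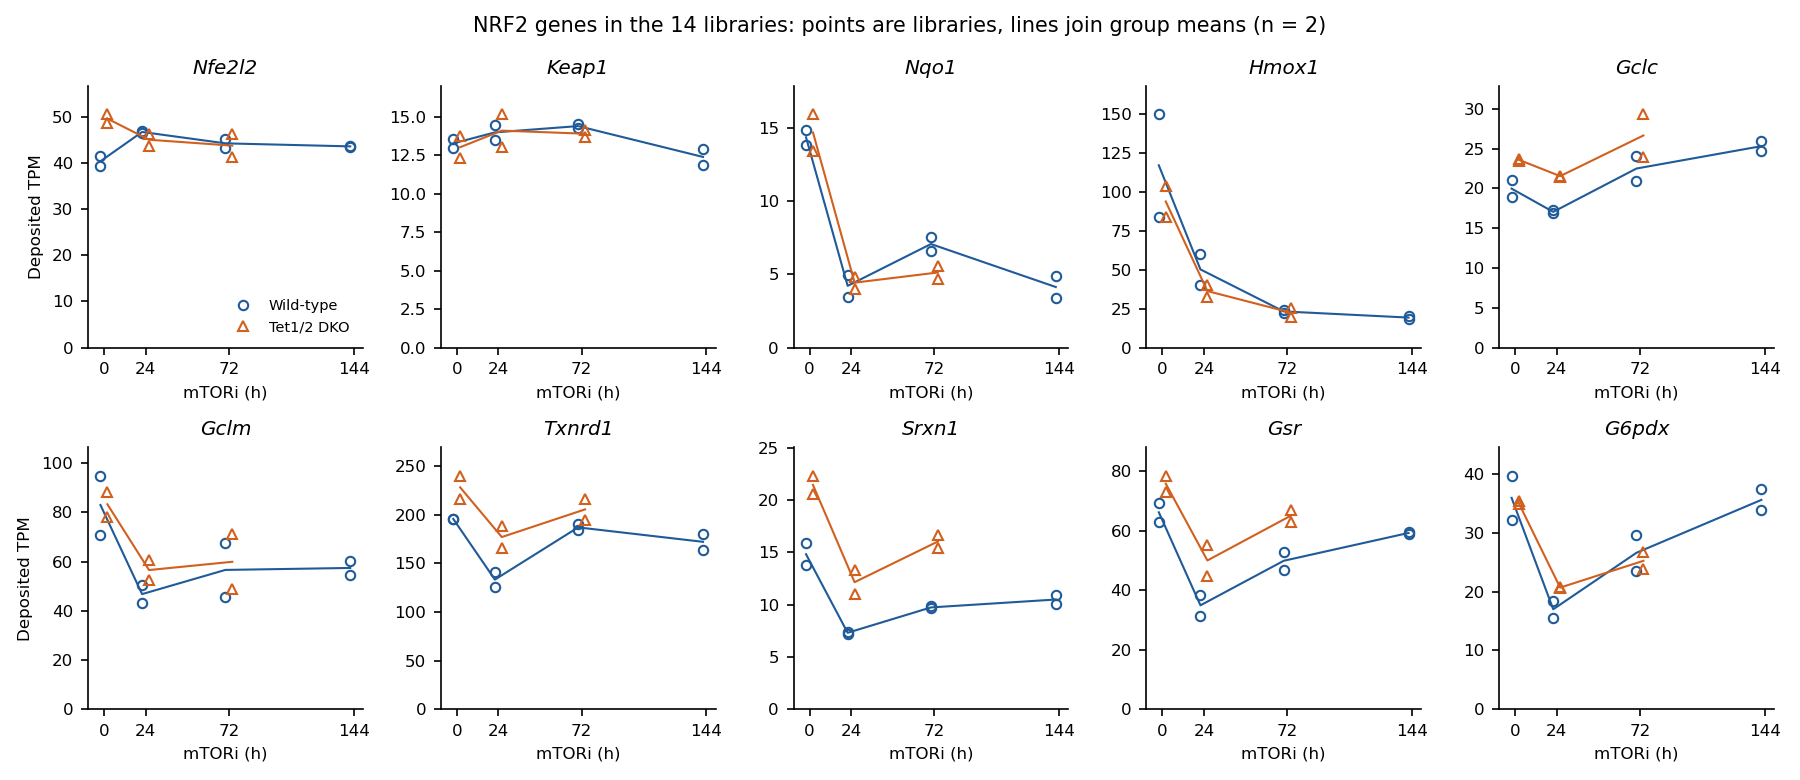
Deposited TPM of the 10 NRF2 genes (vertical axes from 0) against hours of mTORi, with circles for wild-type and triangles for *Tet1/2* DKO libraries and lines through the means of 2 libraries. *Hmox1* drops and stays low. *Nqo1* drops, is higher at WT 72 h than at WT 24 h, and stays below its 0 h libraries at all treated times. *Nfe2l2* and *Keap1* stay between 39.3 and 50.6 and between 11.9 and 15.2 TPM. For *Srxn1*, *Gsr* and *Txnrd1*, each DKO library is above each WT library at each shared time.

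The count at 24 h rested on single libraries on the normalized scale. Without WT 0 h replicate 1 it was 4, and without WT 0 h replicate 2 or WT 24 h replicate 1 it was 1, *Nqo1*, when 1.46% to 3.12% of all genes were called. *Nqo1* passed in 14 of the 14 fits that left out a library, *Hmox1*, *Gclm* and *G6pdx* in 12, *Srxn1* and *Gsr* in 11, and *Txnrd1* in 4. On deposited TPM, leaving out a library kept the change of *Nqo1* between -1.78 and -1.36. That of *Hmox1* ran from -1.59 to -0.76 and that of *Srxn1* from -1.02 to -0.83. With the replicate number as a block within each genotype the normalized count was 7 again, against 25.7% of all genes.

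At the later times the members parted. *Hmox1* in WT cells was down to 24.2 and 22.3 deposited TPM after 72 h and to 20.0 and 18.6 after 144 h, which is 19.8% and 16.5% of its starting mean. Every library at these times was far below the lowest untreated one. On the normalized scale the log2 fold change was -2.67 ± 0.37 (adjusted p = 0.00038) and then -3.51 ± 0.37 (adjusted p = 4.7e-06), the 26th and the 37th lowest of all tested genes, and *Hmox1* passed at both times in all 14 fits that left out a library. *Nqo1* had 7.57 and 6.56 TPM after 72 h, then 4.86 and 3.40 after 144 h. Its change was -1.37 ± 0.34 (adjusted p = 0.020) and -2.58 ± 0.34 (adjusted p = 4.4e-05), with both times below both untreated libraries.

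The other 6 targets, in contrast, had a higher mean share of the RNA after 144 h than after 24 h. *G6pdx* had 29.7 and 23.6 deposited TPM after 72 h, then 37.4 and 33.8 after 144 h. That put its mean at 47.3%, 74.0% and 99.05% of the start at 24, 72 and 144 h, and the 144 h libraries overlapped with the untreated ones. *Gsr* was at 52.9 and 46.9 and then 59.6 and 59.0 TPM, or 52.7%, 75.4% and 89.5% of the start. *Gclc* was at 24.1 and 20.9 and then 26.0 and 24.7 TPM, with both 144 h libraries above both untreated ones. *Txnrd1* and *Gclm* were also above their 24 h means at both later times. *Txnrd1* had 184 and 190.2 TPM after 72 h, then 180.2 and 164, and *Gclm* had 67.5 and 45.7, then 54.6 and 60.3. *Srxn1*, at 9.82 and 9.63 and then 10.1 and 10.9 TPM, was 65.7% and 70.8% of its start. On the normalized scale 4 of the 6 were lower at 144 h than at 24 h. *Gclc* went from 66.4% to 62.2% of the start, *Gclm* from 44.3% to 33.9%, *Txnrd1* from 52.6% to 43.2% and *Srxn1* from 38.4% to 34.7%. *Gsr* went from 40.5% to 43.9% and *G6pdx* from 36.4% to 48.7%. At 72 h all 6 were above their 24 h means on that scale too, at 84.2% (*Gclc*), 51.3% (*Gclm*), 71.0% (*Txnrd1*), 48.9% (*Srxn1*), 56.3% (*Gsr*) and 55.4% (*G6pdx*) of the start. *Nqo1* shared this rise at 72 h, from 22.3% to 36.8% of the start there and from 29.4% to 49.3% in deposited TPM. At 144 h it was back at 14.2% and 28.8%. These differences between the treated times were singled out after the values were seen, and no test was run on them.

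The 2 scales parted most at 144 h, where the factors were lowest. On the normalized scale 3 members were called lower at 72 h, *Nqo1*, *Hmox1* and *Gclm* (7.6% of all genes), and 9 at 144 h, all but *Gclc*, when 50.5% of all genes were called lower. *Gclc* at 144 h was -0.67 ± 0.30 (adjusted p = 0.068), and *Nfe2l2* and *Keap1* were among the 9 with changes of -0.90 and -1.07, near the all-gene median of -0.83. On deposited TPM 5 were called lower at 72 h, *Nqo1*, *Hmox1*, *Srxn1*, *Gsr* and *G6pdx* (11.4% of all genes), and 3 at 144 h, *Nqo1*, *Hmox1* and *Srxn1* (11.7%). With the replicate block the normalized counts were 6 at 72 h (25.4% of all genes) and 10 at 144 h (66.3%). Leaving out a library gave 1 to 6 members at 72 h, where *Hmox1* alone was called without either WT 0 h or either WT 72 h library (0.318% to 2.44% of all genes called lower) and 6 were called without either DKO 24 h library (17.1% and 17.2%). At 144 h it gave 6 without WT 0 h replicate 2 (23.9% of all genes) or WT 144 h replicate 2 (21.5%) and 10 without either DKO 24 h library (59.6% and 59.7%).

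**Figure D2:**
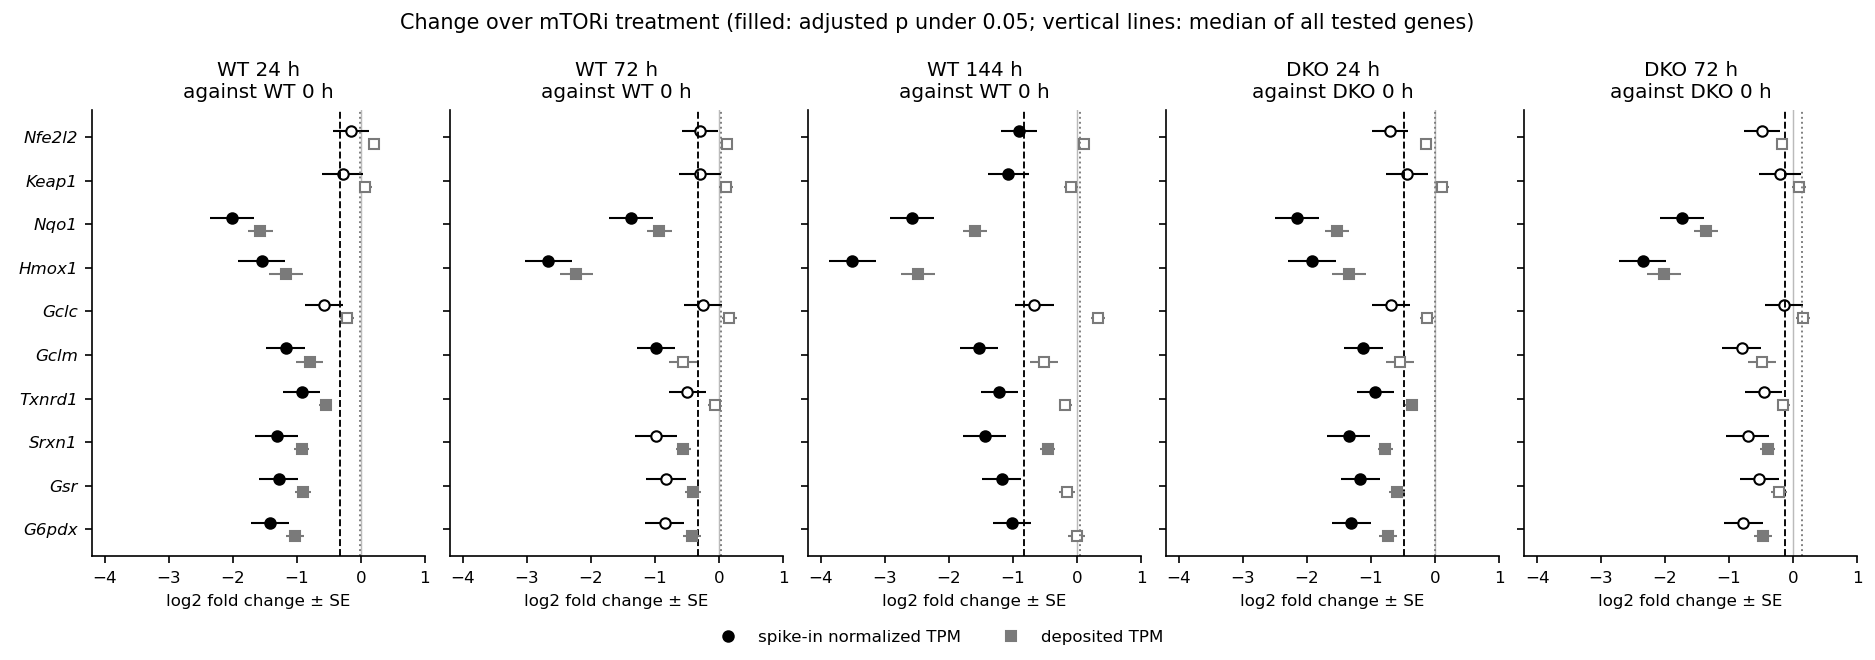
Log2 fold change ± SE of each member against 0 h of its genotype, for spike-in normalized (black circles) and deposited TPM (grey squares), filled where the adjusted p was under 0.05, with dashed and dotted lines at the median of all tested genes on each scale. *Nqo1* and *Hmox1* are filled in all 5 panels on both scales, from -0.93 to -3.51, and *Nfe2l2* and *Keap1* are filled only at WT 144 h on the normalized scale.

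**Figure D3:**
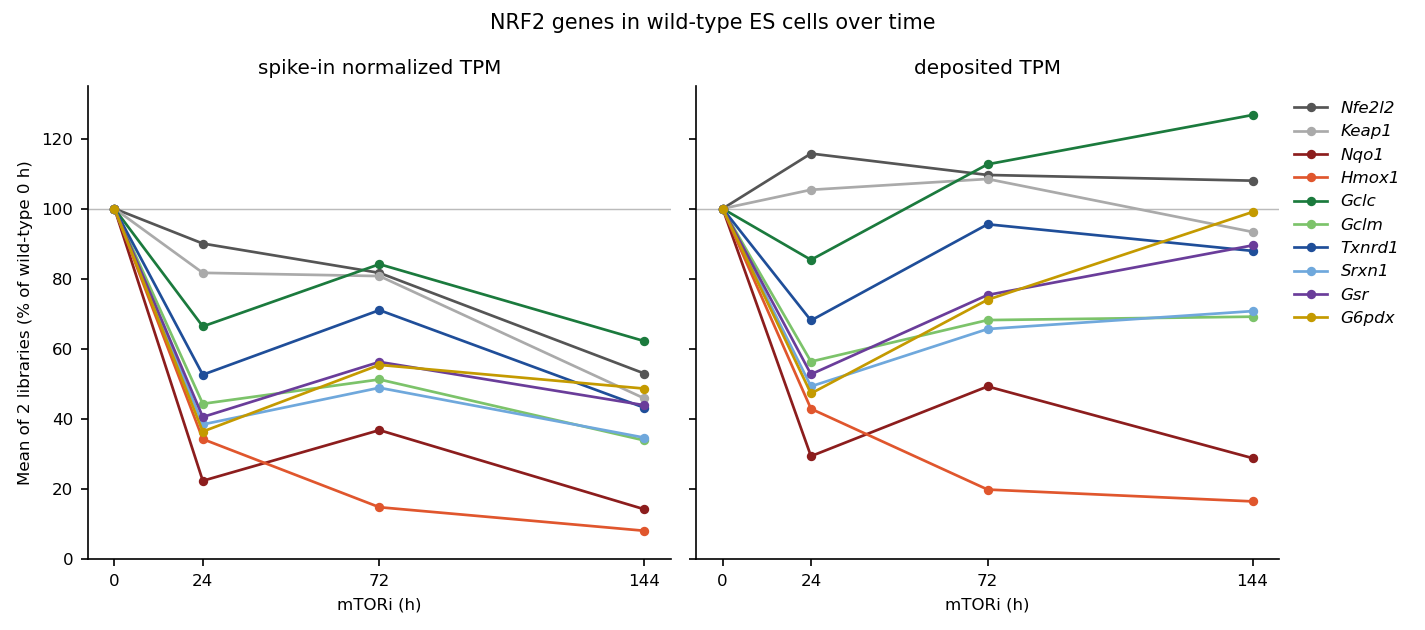
Mean of 2 wild-type libraries as a percentage of the 0 h mean against hours of mTORi, on the normalized scale (left) and in deposited TPM (right). In deposited TPM, *G6pdx* runs from 47.3% at 24 h to 99.05% at 144 h, whereas *Hmox1* ends at 16.5% and *Nqo1* at 28.8%, and on the normalized scale *G6pdx* runs from 36.4% to 48.7%.

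*Tet1/2* DKO cells lost RNA of the same 7 genes at 24 h. These 7 were called lower on the normalized scale (18.7% of all genes), and the same 7 without *Gclm* on deposited TPM (13.3%). *Nqo1* went from 13.4 and 15.9 deposited TPM to 4.85 and 4.01 at 24 h and 4.71 and 5.55 at 72 h. *Hmox1* went from 104 and 83.8 TPM to 40.3 and 32.4 and then 19.5 and 25.5. Both genes were lower in every treated DKO library than in every untreated one. Their normalized changes were -2.15 ± 0.34 and -1.92 ± 0.37 at 24 h (adjusted p = 0.00054 and 0.0019), and -1.73 ± 0.34 and -2.35 ± 0.37 at 72 h (adjusted p = 0.0079 and 0.0012). *Gsr* went from 78.6 and 73.1 TPM to 55.1 and 44.9 and then 63.0 and 67.1, and *G6pdx* from 35.4 and 34.9 to 20.8 and 20.6 and then 23.8 and 26.7. Their 72 h changes were -0.52 (adjusted p = 0.36) and -0.77 (adjusted p = 0.15) on the normalized scale, past the threshold neither for *Gsr* nor for *G6pdx*. *Nfe2l2* had 48.6 and 50.6 TPM untreated, 43.7 and 46.4 after 24 h and 41.3 and 46.2 after 72 h, so that its treated libraries lay below the untreated ones, the opposite order to WT cells at 24 h. Its normalized changes were -0.70 (adjusted p = 0.081) and -0.48 (adjusted p = 0.35).

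At DKO 72 h 2 members were called lower on the normalized scale, *Nqo1* and *Hmox1* (2.95% of all genes), and 4 on deposited TPM, with *Srxn1* and *G6pdx* (9.06%). The replicate block gave 9 members at 24 h, adding *Nfe2l2* and *Gclc* (38.1% of all genes), and 5 at 72 h, adding *Gclm*, *Srxn1* and *G6pdx* (13.2%). The 24 h count was 2, *Nqo1* and *Hmox1*, without DKO 0 h replicate 1 or DKO 24 h replicate 2 (4.17% and 5.35% of all genes called lower), and 10 without DKO 24 h replicate 1 (47.7%). At 72 h it was 1, *Hmox1*, without either DKO 0 h library or DKO 72 h replicate 2 (0.362% to 0.965%). *Hmox1* passed at both times in all 14 fits that left out a library.

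Whether the loss of TET1 and TET2 alters these genes was asked at each shared time and of the response itself. On the normalized scale without a block none of the 10 members was called either way at 0, 24 or 72 h, where 0.0439%, 0.0439% and 0.329% of all genes were. In that fit 2, 1 and 3 of the 10 had an unadjusted p under 0.05 by limma, beside 1523, 755 and 4193 of the 18232 genes. A replicate block with the DKO numbers crossed, added after seeing the data, called 2 members at 72 h (12.2% of all genes either way). On deposited TPM *Srxn1* was called higher in DKO cells at 24 and 72 h, and no other member was called at any of the 3 times. Of all genes, 0.422%, 0.581% and 3.17% were called higher at these times. On deposited TPM 2, 4 and 2 of the 10 had an unadjusted p under 0.05 by limma, beside 2530, 2699 and 3871 of the 18232 genes.

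*Srxn1* was at 13.8 and 15.8 deposited TPM at WT 0 h and at 22.3 and 20.5 at DKO 0 h. After 24 h it stood at 7.22 and 7.37 in WT and 13.3 and 11.0 in DKO cells, and after 72 h at 9.82 and 9.63 in WT and 15.4 and 16.7 in DKO cells. The DKO libraries were above the WT libraries at each time, with means at 145%, 166% and 165% of the WT mean. This order was not particular to *Srxn1*. In *Gsr* and *Txnrd1* every DKO library was also above every WT library at each time. Their DKO means were at 115%, 143% and 130% (*Gsr*) and 117%, 133% and 110% (*Txnrd1*) of the WT mean. The log2 fold changes of *Srxn1* on deposited TPM were 0.51 ± 0.12 (adjusted p = 0.097), 0.66 ± 0.12 (adjusted p = 0.029) and 0.67 ± 0.12 (adjusted p = 0.020). On the normalized scale they were 0.81, 0.78 and 1.09 ± 0.33, with adjusted p of 0.55, 1.0 and 0.14. The fit of all libraries without a block thus made no call there. At 72 h on that scale, the change ran from 0.874 to 1.298 in the fits that left out a library. *Srxn1* was called in 2 of these 14 fits. The deposited calls also rested on single libraries. At 72 h the adjusted p was 0.097 to 0.13 without any 1 of the 4 libraries compared, and at 24 h 0.054 to 0.15 without any 1 of the 4 compared or without a WT 144 h or DKO 72 h library. The difference stayed between 0.53 and 0.78 at 24 h and between 0.61 and 0.72 at 72 h in all these fits.

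The 8 members other than *Srxn1* and *Nfe2l2* spanned DKO-to-WT changes from -0.35 to 0.79 over the 3 times on the normalized scale, beside all-gene medians of 0.29, 0.10 and 0.49. On deposited TPM the highest of these 8 were *Gsr* (0.51 ± 0.12, adjusted p = 0.077) and *Txnrd1* (0.41 ± 0.10, adjusted p = 0.084) at 24 h. The lowest there was *Hmox1* at 24 h (-0.44 ± 0.26, adjusted p = 0.51). *Nfe2l2* differed by 0.58 ± 0.28 at 0 h (adjusted p = 0.60), 0.04 at 24 h and 0.39 at 72 h on the normalized scale. For the response to mTORi on the normalized scale, the difference between the genotypes was called for none of the 10 members at 24 h (0.00548% of all genes were called) or at 72 h (0.0%), and none had an unadjusted p under 0.05 by limma. The 95% intervals of these differences spanned -1.45 to 1.02 (24 h) and -1.37 to 1.41 (72 h) from the lowest to the highest bound over the 10 members. For *Nfe2l2*, whose order of libraries was opposite in the genotypes on deposited TPM, the difference in response at 24 h was -0.34 ± 0.11 there and -0.54 ± 0.39 on the normalized scale, with adjusted p of 1.0 on both. On deposited TPM its unadjusted p was 0.012 at 24 h (95% interval -0.59 to -0.09) and 0.021 at 72 h (-0.31, interval -0.56 to -0.06), which did not pass the adjustment over all genes.

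**Figure D4:**
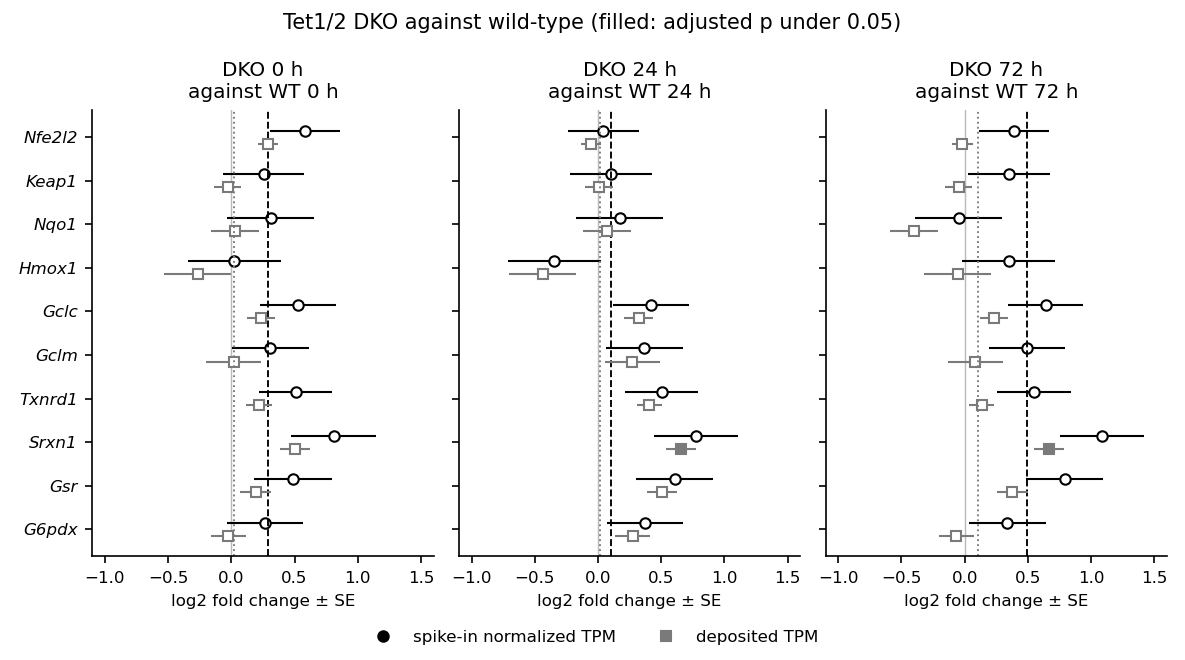
Log2 fold change ± SE of each member in *Tet1/2* DKO against wild-type cells at 0, 24 and 72 h, for spike-in normalized (black circles) and deposited TPM (grey squares), filled where the adjusted p was under 0.05, with dashed and dotted lines at the all-gene medians. *Srxn1* at 24 and 72 h on deposited TPM, at 0.66 and 0.67, is the one filled member.

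The rest of the NRF2 network was read from 6 lists without the 10 members. At WT 24 h on the normalized scale the counts of genes called lower were 3 of 16 tested for glutathione synthesis and use, 5 of 13 (and 1 higher) for the thioredoxin and peroxiredoxin system, 3 of 13 for NADPH supply, 5 of 13 for other detoxification and iron genes, 1 of 11 for regulators and partners of the NRF2 protein and 0 of 4 for superoxide and peroxide enzymes, where 8.73% of all genes were called lower. In the same order deposited TPM gave 5, 8, 5, 6, 2 and 0 lower (14.1% of all genes) and 3, 1, 1, 2, 4 and 0 higher (15.8%). The replicate block gave 7, 11, 7, 8, 2 and 2 lower (25.7%) and 1, 1, 0, 0, 1 and 0 higher (817 of the 18232 genes). The median changes on the normalized scale were -0.57, -0.83, -0.70, -0.78, -0.25 and -0.65, beside -0.33 for all genes. The next 3 genes were singled out after their values were seen. *Prdx1*, a peroxiredoxin that *Srxn1* repairs, went from 571 and 652 deposited TPM to 282 and 280, with 556 and 547 after 144 h (-1.49 ± 0.29 at 24 h on the normalized scale, adjusted p = 0.0033). *Prdx1* was still lower at 144 h after spike-in normalization, with 595 and 547 against 1205 and 1377 normalized TPM at the start (-1.17 ± 0.29, adjusted p = 0.0034). *Cbr3*, a carbonyl reductase, went from 8.17 and 15.7 to 0.977 and 1.02 (-3.24 ± 0.37, adjusted p = 3.3e-05). *Slc7a11*, the cystine importer that feeds glutathione synthesis, was below the filter, with 0.908 and 1.63 TPM untreated and 0.0533 and 0.0233 after 144 h, and has no test.

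At WT 144 h the same lists had 11 of 16, 10 of 13, 11 of 13, 11 of 13, 7 of 11 and 4 of 4 genes called lower on the normalized scale (50.5% of all genes), and on deposited TPM 6, 7, 5, 9, 3 and 1 lower (11.7%) and 3, 2, 2, 1, 3 and 0 higher (15.6% of all genes were called higher on that scale). The next changes are on the normalized scale, where the all-gene median was -0.83. The genes with the smallest adjusted p at 144 h were, in the same order of lists, *Gss* (-2.25), *Gpx1* (-1.90) and *Glrx3* (-1.61), then *Prdx6* (-1.87), *Sesn2* (-2.12) and *Msrb1* (-1.78). *Gss* is glutathione synthetase, the step after *Gclc* and *Gclm*. Among NADPH genes they were *Mthfd2* (-3.39), a mitochondrial folate enzyme that mainly makes NADH, *Idh1* (-2.50) and *H6pd* (-1.96). Among detoxification and iron genes they were *Akr1b8* (-2.62), the ferritin heavy chain *Fth1* (-2.27) and the biliverdin reductase *Blvrb* (-1.72). The superoxide and peroxide enzymes were *Cat* (-1.44), *Sod2* (-1.45) and *Ccs* (-1.37), of which only *Cat* passed on deposited TPM. *Nnt* stood under 2 overlapping gene identifiers whose changes at 24 h had opposite signs (0.79 and -1.57), and it was counted as 2 genes and is uncertain.

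Of the regulators, the ligase subunit *Rbx1* (-1.55), the autophagy receptor *Sqstm1* (-1.34), which binds KEAP1, and the ligase adaptor *Btrc* (-1.45) fell at 144 h on the normalized scale. Their changes on deposited TPM were smaller, at -0.52, -0.32 and -0.45 (adjusted p = 0.0014, 0.038 and 0.027). *Bach1*, a haem-sensitive repressor that competes with NRF2 at *Hmox1* and was singled out after its values were seen, had 5.78 and 8.50 deposited TPM in untreated WT cells, then 16.4 and 28.4 after 24 h, 13.2 and 16.2 after 72 h and 18.1 and 17.0 after 144 h. Every treated library was above every untreated one. On deposited TPM its change was 1.49 at 24 h (adjusted p = 0.0018), and 1.21 at 144 h (adjusted p = 0.0066), but on the normalized scale it was 1.20 ± 0.40 (adjusted p = 0.064) and 0.27 (adjusted p = 0.58). In DKO cells *Bach1* had 6.68 and 6.57 TPM untreated, 15.9 and 10.8 after 24 h and 13.1 and 12.6 after 72 h. *Txnip*, which binds and blocks thioredoxin and was also singled out after its values were seen, rose from 84.9 and 100.2 deposited TPM to 261 and 241 at WT 24 h (1.07 ± 0.31 on the normalized scale, adjusted p = 0.032, past the threshold in 10 of 14 fits that left out a library). At 144 h its change was 0.55 on the normalized scale (adjusted p = 0.14) and 1.57 on deposited TPM (adjusted p = 8.4e-05). Between the genotypes on the normalized scale 1 gene of the 6 lists was called, the biliverdin reductase *Blvra* at 72 h, higher in DKO cells by 1.61 ± 0.33 (adjusted p = 0.041), at 9.60 and 8.91 against 3.41 and 3.81 deposited TPM. It passed in 6 of 14 fits that left out a library, and on deposited TPM the difference was 1.15 (adjusted p = 0.0047). Deposited TPM also called *Gstm1*, a glutathione transferase with close paralogs, lower in DKO cells at 0, 24 and 72 h (-0.61, -0.89 and -0.84, adjusted p = 0.045, 0.0078 and 0.0064), *Mthfd2* lower (-1.07, adjusted p = 0.0041) and 1 *Nnt* identifier higher at 24 h (2.51, adjusted p = 0.044), and *Idh1* higher at 72 h (0.79, adjusted p = 0.035).

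**Figure D5:**
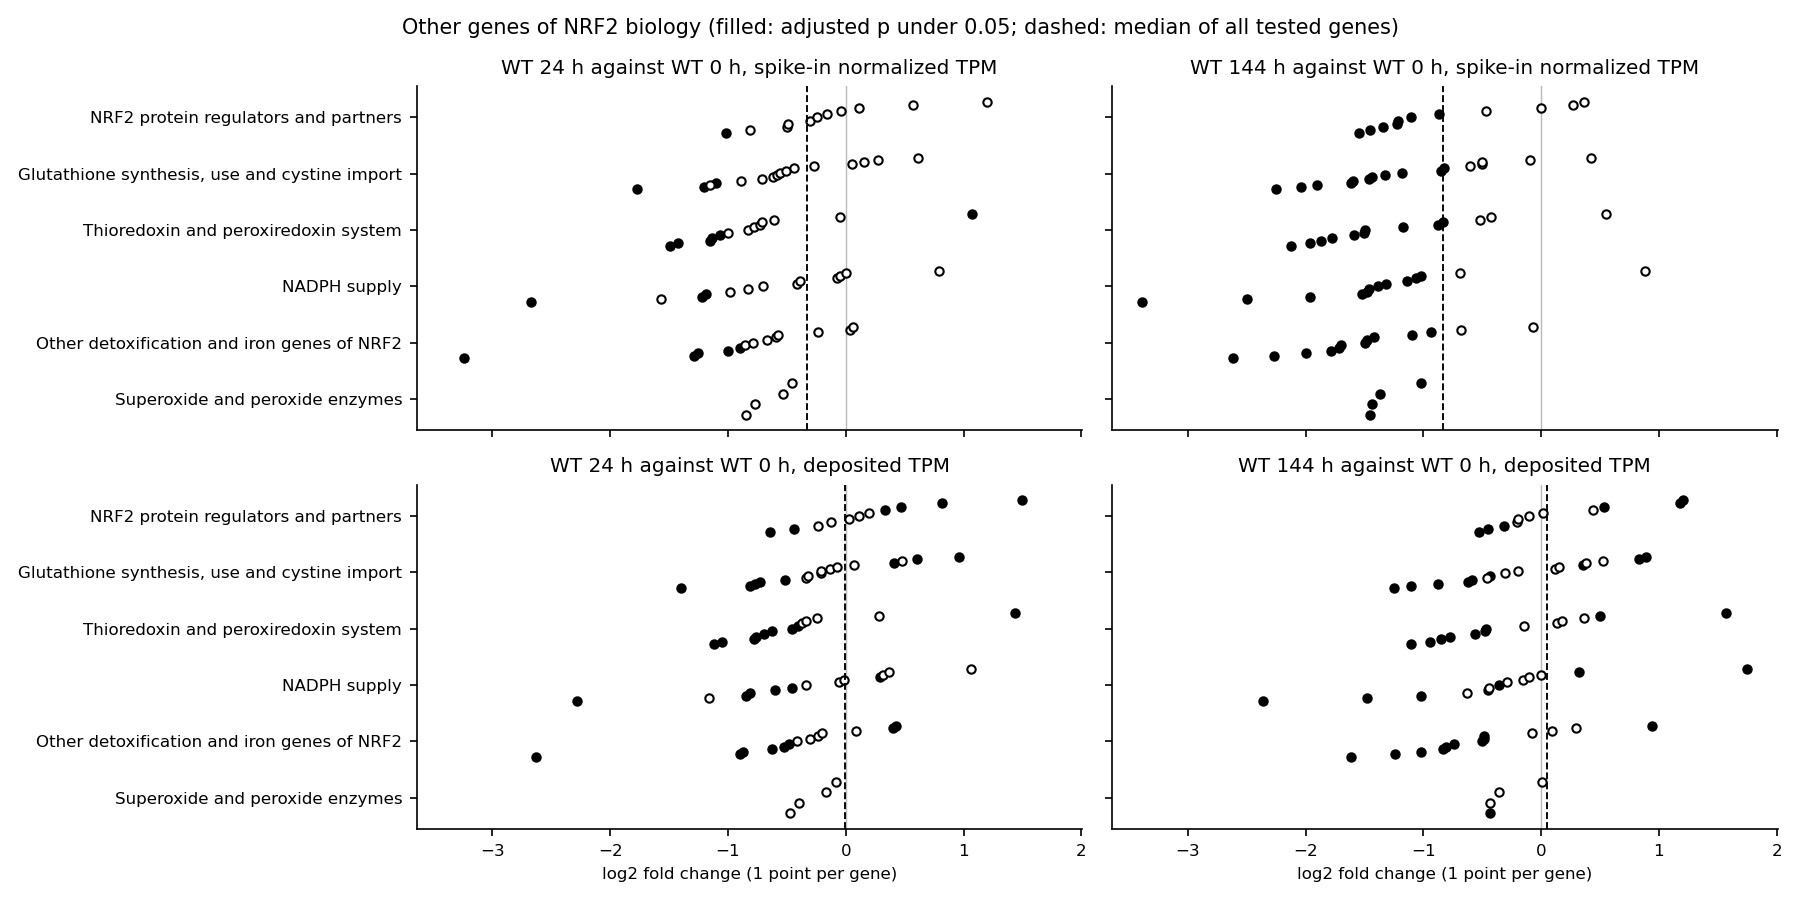
Log2 fold change of each tested gene of the 6 lists at WT 24 h and WT 144 h against WT 0 h, on the normalized scale (top) and in deposited TPM (bottom), filled where the adjusted p was under 0.05, with a dashed line at the median of all tested genes. Most points of the thioredoxin and detoxification lists lie left of the line, and *Bach1* and *Txnip* are the rightmost points of their lists at 24 h.

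The correlations of the members across the 14 libraries are a description over libraries that share groups and time points. The 45 pairs of members had Pearson's r of log2(deposited TPM + 1) from -0.50 (*Keap1* and *G6pdx*) to 0.92 (*Txnrd1* and *Gsr*), and pairs of targets ran from -0.40 (*Hmox1* and *Gclc*) to that value, with 0.018 for *Nqo1* and *Gclc*. *Nfe2l2* had r from -0.15 to 0.12 with the other 9. The genes most like *Nfe2l2* were *Bloc1s4* (0.80), *Hist1h4m* (0.77), Gm44357 (0.75), *Xlr* (0.73) and *Hist1h2bg* (0.73). Those most like *Nqo1* were Gm10177 (0.97), *Psmc4* (0.95), *Calca* (0.95), *Sec61g* (0.95) and *Copz1* (0.95).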

How the data were processed

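Bulk RNA-seq libraries were made after ribosomal RNA removal with ERCC standards added. The deposited files hold TPM per gene, which the authors made with cutadapt 2.4, STAR 2.7.3a and StringTie 2.0 (versions per the submitters' processing notes) on mm10. TPM of entries sharing a gene identifier were summed. The spike-in factor of each library was the median ratio of the study's normalized supplementary table to the deposited TPM over 482 to 539 genes (100% within 1% of the factor); no other value came from that table. Genes with a mean normalized TPM of at least 1 were kept, and log2(TPM + 1) was fitted over all 14 libraries with limma 3.58.1 (R 4.3.3, trend, 7 groups), with Benjamini-Hochberg adjustment over 18232 genes, two-sided, and a threshold of 0.05. The pseudocount understates changes of low genes. The scripts were tested on simulated data. Members and lists were chosen with earlier results of these data known. Named were all members and, per list, up to 3 genes with the smallest adjusted p at WT 144 h and at DKO 72 h against WT 72 h, and for likeness the 5 genes closest to *Nfe2l2* and to *Nqo1*. *Prdx1*, *Cbr3*, *Slc7a11*, *Bach1*, *Txnip* and the genes called between the genotypes on deposited TPM were named outside this rule, after their values were seen. The study describes replicates as biological and time points of a replicate as processed in parallel. Differences between the 2 replicates correlated across genes between time points at 0.22 to 0.34 in DKO and 0.062 to 0.40 in WT cells, so the replicate number was also used as a block within each genotype.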

Additional observations from a re-analysis of the deposited data

How the results depend on the processing

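Counts of NRF2 genes called are given in the order WT 24, 72 and 144 h and DKO 24 and 72 h against 0 h, which were 7, 3, 9, 7 and 2. On deposited TPM they were 7, 5, 3, 6 and 4, and 1 at DKO against WT 24 h and 72 h. With the replicate block within each genotype they were 7, 6, 10, 9 and 5, and deposited TPM with this block gave 5 at WT 72 h, 4 at WT 144 h and 4 at DKO 72 h (32.0%, 35.5% and 35.8% of all genes either way). The block could not be fitted between the genotypes at 1 time. The block across all libraries changed the call of 1 of the 58 gene-wise values, *Gclm* at WT 72 h. Since the replicate differences of WT and DKO cells correlated negatively at each of the 3 shared times, a block with the DKO numbers crossed was added after seeing the data, and it gave 6 at WT 72 h, 4 at DKO 72 h and 2 at DKO against WT 72 h, where 21.3%, 14.2% and 12.2% of all genes were called either way. Without the filter on low values the counts were 2 at WT 24 h, 1 at WT 72 h and 4 at DKO 24 h (2.73%, 1.87% and 6.16% of 38890 genes). Leaving out each library gave 1 to 7, 1 to 6, 6 to 10, 2 to 10 and 1 to 3 members, and 0 to 2 at DKO against WT 72 h. A pseudocount of 0.1 moved no count by over 1.5 times.

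Among the changes over time, signs turned for *Nfe2l2*, *Keap1* and *Gclc*, for example *Nfe2l2* at WT 144 h, which was called lower on the normalized scale (-0.90), *Gclc* at WT 144 h (-0.67) and *Keap1* at DKO 24 h (-0.44). On deposited TPM, with or without the block where it could be fitted, *Nfe2l2* was 0.21, 0.13 and 0.11 at WT 24, 72 and 144 h, *Keap1* 0.070 and 0.11 at WT 24 and 72 h and 0.10 and 0.089 at DKO 24 and 72 h, and *Gclc* 0.16 and 0.33 at WT 72 and 144 h and 0.16 at DKO 72 h. *Nfe2l2* was -0.052 and -0.018 at DKO against WT 24 and 72 h without the block. Other members also turned between the scales in comparisons of the genotypes, such as *Hmox1* at 0 h (0.02 to -0.27) and 72 h (0.35 to -0.06) and *G6pdx* at 0 h (0.26 to -0.02) and 72 h (0.34 to -0.07), none of them called. Leaving out a library gave *Nfe2l2* -0.33 to 0.016 at WT 24 h, -0.27 to 0.36 at DKO against WT 24 h and -0.39 to 0.00077 for the difference in response at 72 h, and *Keap1* -0.89 to 0.013 at DKO 24 h and -0.45 to 0.041 at DKO 72 h. The cause was not tested. Deposited TPM with the block also put *Gclc* higher at WT 144 h (adjusted p = 0.046). Read depth was unknown, and with 2 libraries a group and factors up to 1.65-fold apart the SE of a member's change against 0 h was 0.28 to 0.37 on the normalized scale and 0.080 to 0.26 on deposited TPM.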
